A study of Mus musculus with 40 samples.

Results

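The genes of hormones, cytokines and a transfer protein that brown fat is known to release, Fgf21, Gdf15, Nrg4, Bmp8b, Il6, Cxcl14 and Pltp, were followed through the histone marks of mouse interscapular brown adipose tissue (iBAT). They are 7 of the 21938 protein-coding genes in the annotation. Fgf21 and Gdf15 were picked from these same data, because H3K27ac lay at their start sites in all cold and no warm libraries, so for both of them every comparison of cold with warm is a description without a test. The other 5 were chosen by their known role. Wild-type C57BL/6N mice of 20 weeks were studied in 4 groups of 2. Mice 1 and 2 were kept warm on a normal chow diet (NCD), mice 4 and 5 were on NCD and spent 24 h at 4 °C, mice 7 and 8 were kept warm on a high-fat diet (HFD) given for 12 weeks from 8 weeks of age, and mice 10 and 11 had the same HFD and the same cold exposure. Each mouse gave 1 peak list for each of 4 marks, 32 lists with 457842 peaks in all. Whole tissue was used, so a mark present in fewer cells cannot be told apart from less of the mark per cell.

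FGF21 is an endocrine member of the fibroblast growth factor family that signals through FGFR1 and the co-receptor β-Klotho. GDF15 is a distant member of the TGF-β family that rises in many kinds of cell stress and acts on the hindbrain through GFRAL and RET. NRG4 is an EGF-like ligand of ErbB4, BMP8B a bone morphogenetic protein that raises the thermogenic response, IL-6 a cytokine that signals through gp130, CXCL14 a chemokine that attracts macrophages, and PLTP a plasma protein that moves phospholipids between lipoproteins. Of the marks, H3K4me3 sits at promoters that are in use or poised, H3K27ac at active promoters and enhancers, H3K4me1 at enhancers and H3K27me3 at genes held silent by Polycomb. A gene was scored as marked when a peak overlapped 1000 bp on either side of one of its annotated start sites, and each gene was also read over its body and 20 kb on each side, called its region here. Coordinates are GRCm38.

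The promoter sequences of the genes with the most contrasting patterns are shown here, as the 250 bases before the start site from RefSeq (GRCm38.p6), 5′ to 3′ on the strand of the gene. Fgf21 (chr7:45615491-45615740, minus strand) and Gdf15 (chr8:70632457-70632706, minus strand, upstream of the outer of its 2 start sites) are the genes with H3K27ac in cold mice, and Nrg4 (chr9:55283626-55283875, minus strand, upstream of its inner start site) carried the mark in every mouse. None of these 3 stretches overlaps an annotated exon. Capitals mark the matches described next.
Fgf21: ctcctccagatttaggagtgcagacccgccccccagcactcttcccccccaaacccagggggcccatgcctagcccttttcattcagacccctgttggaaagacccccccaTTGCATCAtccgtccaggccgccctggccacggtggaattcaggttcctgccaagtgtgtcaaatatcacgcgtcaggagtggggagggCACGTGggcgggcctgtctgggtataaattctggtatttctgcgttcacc
Gdf15: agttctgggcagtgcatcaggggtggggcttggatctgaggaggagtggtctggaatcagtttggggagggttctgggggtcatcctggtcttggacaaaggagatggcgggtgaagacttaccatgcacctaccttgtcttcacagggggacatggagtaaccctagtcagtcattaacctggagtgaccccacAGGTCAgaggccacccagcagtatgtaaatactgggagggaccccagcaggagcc
Nrg4: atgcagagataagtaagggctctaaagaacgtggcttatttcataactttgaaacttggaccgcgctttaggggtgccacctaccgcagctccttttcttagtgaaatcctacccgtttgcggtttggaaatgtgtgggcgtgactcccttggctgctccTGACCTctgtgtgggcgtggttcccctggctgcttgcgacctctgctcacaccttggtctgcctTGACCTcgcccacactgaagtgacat

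These windows were searched on both strands for 4 motifs: TGACGTCA, the cyclic AMP response element bound by CREB and ATF2, TGATGNAA, the C/EBP-ATF element bound by ATF4 and its partners, AGGTCA, the core element of nuclear receptor sites, and CACGTG, an E-box. The Fgf21 window held 1 C/EBP-ATF element on the opposite strand, 132 to 139 bases before the start site, and 1 E-box 45 to 50 bases before it. The Gdf15 window shown held 1 AGGTCA, and the Nrg4 window held 2 on the opposite strand. The window before the inner Gdf15 start site held 1 E-box, that of Cxcl14 held 1 AGGTCA on the opposite strand, and the windows of Bmp8b, Il6 and Pltp held none of the 4. TGACGTCA was found in none of the 8 windows, and no 2 matches overlapped. Over 20150 promoter windows of protein-coding genes, TGACGTCA was present in 1.99%, TGATGNAA in 2.95%, CACGTG in 6.78% and AGGTCA in 12.6%. The promoters also differed in CpG content. The observed to expected CpG ratio, read from 250 bases before to 50 after the start, was 0.36 at Fgf21, 0.042 and 0.30 at the outer and inner starts of Gdf15 and 0.21 at Il6, against 0.67 at Nrg4, 0.73 at Bmp8b, 0.77 at Cxcl14 and 0.50 at Pltp. The median over all promoter windows was 0.59, so Fgf21, Gdf15, Il6 and Pltp lay below it and Nrg4, Bmp8b and Cxcl14 above it.

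In the 7 regions together there were 427 peaks: 224 of H3K27ac, 137 of H3K4me3, 65 of H3K4me1 and 1 of H3K27me3. Of these, 98 lay at a start site of one of the 7 genes, 110 at a start site of a neighbouring gene, 132 elsewhere in the gene body and 87 in the flanks. All 7 genes had H3K4me3 at a start site in at least 1 mouse, and 5 had H3K27ac there, Il6 and Cxcl14 being the exceptions. Of the 21938 protein-coding genes, 14232 had H3K4me3 and 10887 had H3K27ac at a start site in at least 1 mouse. Fgf21 and Gdf15 were picked for H3K27ac, so the count for that mark is partly fixed by the choice. The length of the lists differed widely between mice. H3K27ac lists held 14511 to 40604 peaks in cold mice and 3224 to 33798 in warm mice, the shortest being that of mouse 7. H3K4me3 lists were more even, at 13517 to 24104 peaks. For H3K4me1, mice 7 and 10 had 12 and 18 listed peaks where mouse 5 had 27568, and H3K27me3 lists held 20 to 6428, so for these marks an absent peak says little and neither mark was tested. Of 8 brown adipocyte marker genes, every mouse had H3K4me3 at the start sites of 7 or 8 and H3K27ac at 6 to 8. Of 8 immune markers, 0 to 2 had H3K4me3 in a cold mouse and 0 in any warm mouse, and 1 of them, Cd68, had H3K27ac in 2 cold and 0 warm mice. Of 5 endothelial markers, 3 or 4 had H3K27ac in a cold mouse and 1 to 4 in a warm mouse, with Cdh5 in 4 cold and 2 warm mice and Kdr in 4 and 3. Of 6 skeletal muscle markers, 2 had H3K4me3 and 1 had H3K27ac in at least 1 mouse. Mylpf had H3K4me3 in 8 and H3K27ac in 6 mice, and Acta1 had H3K4me3 in 4 of 4 NCD and 0 of 4 HFD mice. The part of these other cell types in the values of the 7 genes was not tested. Genes of liver and neurons, 4 in all, had neither mark in any mouse.

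**Figure D1:**
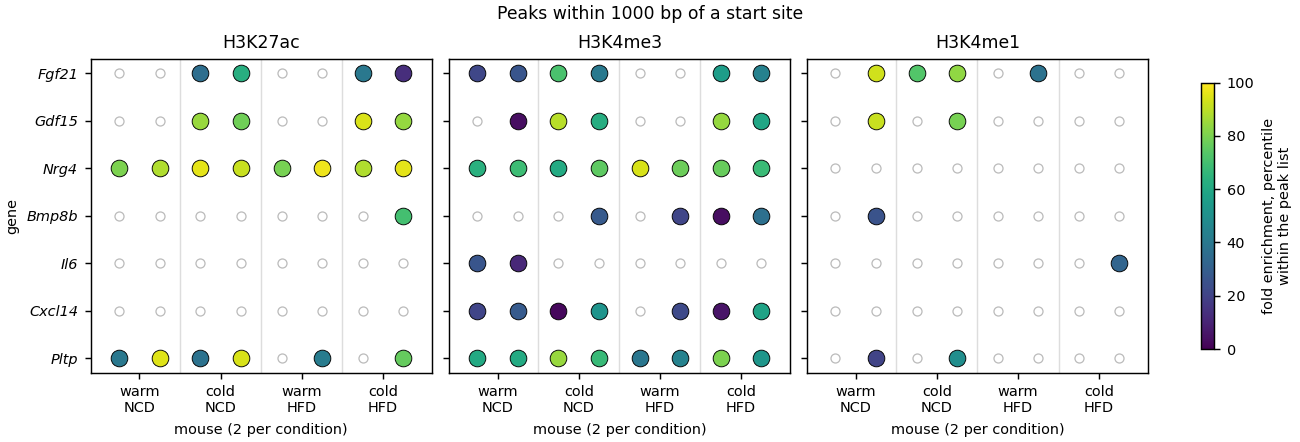
Peaks within 1000 bp of a start site of each gene (rows) in the 8 mice (columns, 2 for each of 4 conditions), for H3K27ac, H3K4me3 and H3K4me1; a large filled circle is a listed peak coloured by the percentile of its fold enrichment within its own list, and a small open circle means that none was listed. H3K27ac was listed at Fgf21 and Gdf15 in the 4 cold mice only and at Nrg4 in all 8, while Il6 and Cxcl14 had none.

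Fgf21 (ENSMUSG00000030827.5, chr7:45613886-45615490, minus strand) has 1 annotated start site. H3K27ac was listed there in the 4 cold mice, with fold enrichments over input of 4.58 and 8.01 on NCD (mice 4 and 5) and 4.97 and 3.56 on HFD (mice 10 and 11). No warm mouse had a peak there, and the nearest warm H3K27ac peak was 11.7 to 12.1 kb away in mice 1, 2 and 8 and 90.2 kb away in mouse 7. The cold peaks were modest ones, at percentiles 13.2 to 62.7 of the fold enrichments in their lists, and each peak overlapped the gene's coding sequence, with summits 163 to 397 bp downstream of the start. These values chose the gene. Among 10887 protein-coding genes with H3K27ac at a start site in at least 1 mouse, 13 had it in all 4 cold and no warm mice, which is 0.119%. The lowest −log10 q among the 4 cold Fgf21 peaks was 3.24, and 14.2% to 35.4% of the peaks in each warm list had a lower value. Whether signal below the calling limit lay at Fgf21 in warm mice was not tested.

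The part of the first Fgf21 exon that lay inside the H3K27ac peaks of all 4 cold mice and is coding (chr7:45615162-45615306, minus strand, 145 of the 176 shared bases, RefSeq GRCm38.p6) is printed because it is the stretch marked in every cold and no warm mouse. Capitals mark the start codon.
Fgf21 exon: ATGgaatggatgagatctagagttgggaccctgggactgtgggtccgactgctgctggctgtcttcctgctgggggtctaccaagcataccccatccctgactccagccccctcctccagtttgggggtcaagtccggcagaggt

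By presence, H3K4me3 at Fgf21 did not follow the pattern of H3K27ac. It was present in 6 of 8 mice, with a fold enrichment of 6.53 and 6.65 in warm NCD mice 1 and 2, 19.8 and 16.7 in cold NCD mice 4 and 5, and 8.66 and 8.94 in cold HFD mice 10 and 11. Each cold fold was above those of mice 1 and 2, a description without a test. Both warm HFD mice lacked the mark. That arrangement, absent from the warm HFD mice and present in the 6 others, was taken from the values of Fgf21 itself. It was shared by 76 of 14232 genes with H3K4me3 at a start site, or 0.534%, and nothing is read from that share. Mouse 7, with the shortest list, is 1 of the 2 mice without H3K4me3 at Fgf21. For mouse 8 the list held 19079 peaks, against 17195 in mouse 10, which had the mark. The part of list length in the absence from these 2 mice was not tested. By diet, 4 of 4 NCD and 2 of 4 HFD mice had H3K4me3 at Fgf21 (two-sided Fisher's exact test, p = 0.429, adjusted p = 1 over all genes). H3K4me1 began 166 to 255 bp upstream of the start site, at the outer end of the printed promoter or just beyond it, in mice 2, 4, 5 and 8, with fold enrichments of 6.95, 5.53, 6.24 and 3.88. Cold and warm mice were thus equally represented for H3K4me1. The 4 mice without it at the start site had the 4 shortest H3K4me1 lists, with 12, 18, 592 and 7774 peaks in mice 7, 10, 1 and 11. The part of list length in this split was not tested.

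Around Fgf21, the other H3K27ac in its region lay mainly at Rasip1, which encodes a Ras-interacting protein of blood vessel endothelium and starts about 12 kb upstream. Rasip1 carried H3K27ac in 7 of 8 mice, with the highest fold per mouse from 4.35 in mouse 1 to 10.6 in mouse 11, and H3K4me3 in the same 7. Mouse 7 was the exception for both marks. Gm45437, a predicted gene further upstream, carried weak H3K4me3 in mice 5 and 8. Warm and cold mice thus both held listed peaks a short way from the Fgf21 start site.

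Gdf15 (ENSMUSG00000038508.7, chr8:70629393-70632456, minus strand) has 2 annotated start sites 361 bp apart. H3K27ac was listed in the 4 cold mice with fold enrichments of 8.997 and 10.6 on NCD (mice 4 and 5) and 10.4 and 9.07 on HFD (mice 10 and 11), a narrow range, and at percentiles 78.3 to 94.2 of their lists. These peaks spanned chr8:70630963-70631602, from the first coding exon into the intron behind it, with summits 831 to 959 bp downstream of the inner start site. No warm mouse had a peak there, and the nearest warm H3K27ac peak lay 2.78 and 4.02 kb away in mice 8 and 2, and 20.9 and 42.3 kb away in mice 1 and 7. Because the peaks lie inside the gene, the count depends on the window: within 500 bp of a start site, 1 of the 4 cold mice had a peak, and within 2000 bp, 1 warm mouse gained one. The weakest cold peak had a −log10 q of 13.2, above 71.3% to 97.0% of the peaks of the warm lists. These cold peaks chose the gene, which is among the 13 of 10887 genes (0.119%) with that pattern. Whether signal below the calling limit lay at Gdf15 in warm mice was not tested.

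The intron sequence shared by the 4 cold peaks (chr8:70631035-70631332, minus strand, 298 of 455 shared bases, RefSeq GRCm38.p6) is printed because all 4 summits fell in it. Capitals mark the 129 bases from the first summit to the last.
Gdf15 intron: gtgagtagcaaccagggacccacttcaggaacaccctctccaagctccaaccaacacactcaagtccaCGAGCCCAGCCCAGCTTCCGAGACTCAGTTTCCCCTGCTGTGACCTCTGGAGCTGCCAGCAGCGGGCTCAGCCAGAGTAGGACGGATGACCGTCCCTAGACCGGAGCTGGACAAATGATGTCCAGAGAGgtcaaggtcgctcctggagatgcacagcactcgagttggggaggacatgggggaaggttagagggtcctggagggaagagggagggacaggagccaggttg

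H3K4me3 over the same part of Gdf15 was listed in the 4 cold mice, with fold enrichments of 37.4, 51.5, 17.4 and 17.4 in mice 4, 5, 10 and 11, and weakly in warm mouse 2 with 3.91. Further into the gene, over the last exon, H3K4me3 was listed as a peak of its own in mice 1, 2, 4 and 8, with folds of 23.6, 24.98, 5.93 and 6.33. In mice 5 and 11 a single wide peak joined the 2 places, and in mouse 5 its summit, where the fold of 51.5 was read, lay over the last exon. The 3 warm mice other than mouse 7 therefore held H3K4me3 in Gdf15, mostly over its last exon. By diet, H3K4me3 at the start site was present in 3 of 4 NCD and 2 of 4 HFD mice (two-sided Fisher's exact test, p = 1, adjusted p = 1). H3K4me1 was listed inside the gene in mice 2 and 5.

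Upstream of Gdf15, 2 further H3K27ac regions were present in the same 6 mice, missing from mice 1 and 7. At chr8:70633538-70636145, starting about 1 kb upstream of the outer start site, the highest fold in each cold mouse was 8.997, 9.48, 5.71 and 5.74 in mice 4, 5, 10 and 11. Warm mice 2 and 8 had 3.85 and 3.49 there. At chr8:70646154-70650289, some 15 kb upstream, the highest folds were 11.3, 7.24, 11.1 and 13.8 in the cold mice in the same order, 4.82 in mouse 2 and 10.2 in mouse 8. The near region was thus weaker in both warm mice that had it than in any cold mouse, and at the far one mouse 8 lay within the cold range. H3K4me1 was listed in the near region in mice 2, 4, 5 and 11 and in the far region in mice 2, 4, 5 and 8. Downstream, H3K4me3 at the start site of Gm45546 was listed within the 20 kb in all mice but mouse 7, and Lrrc25, a gene expressed in myeloid cells, carried H3K4me3 in cold mice 4 and 5 alone. Those lists were also among the 3 longest for H3K4me3.

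**Figure D2:**
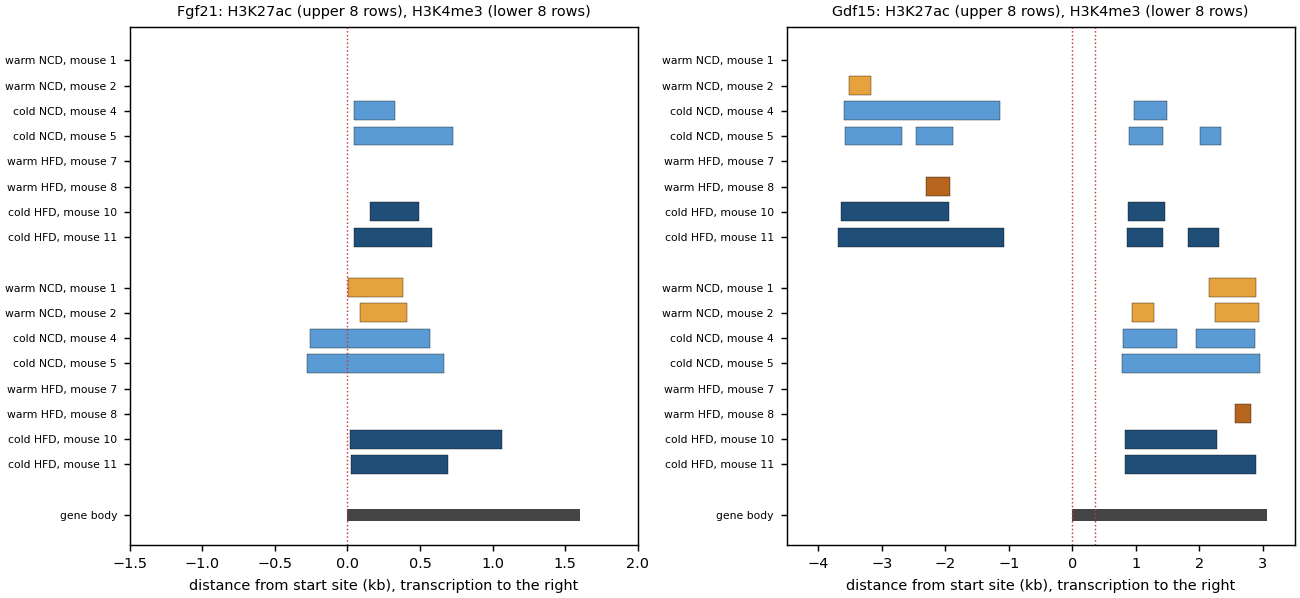
Peaks of H3K27ac (upper 8 rows) and H3K4me3 (lower 8 rows) at Fgf21 (left) and Gdf15 (right), 1 row for each mouse; the x axis is the distance in kb from the start site (the outer one for Gdf15), bars span the listed peaks, dotted lines mark start sites and the grey bar the gene body. H3K27ac bars inside both genes are in the 4 cold rows only, and H3K4me3 bars also appear in warm rows.

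The H3K27ac lists held 30544, 30495, 14511 and 40604 peaks in cold mice 4, 5, 10 and 11 and 16889, 28433, 3224 and 33798 in warm mice 1, 2, 7 and 8. The longest list was that of a cold mouse and the shortest that of a warm mouse, and the part of list length in the pattern at Fgf21 and Gdf15 was not tested. Requiring a −log10 q of at least 5 left Gdf15 alone, since Fgf21 then kept its peak in 1 cold mouse (mouse 5). Among the 3000 strongest peaks of each list neither gene was marked in all cold mice. Since each temperature held 2 NCD and 2 HFD mice, the choice of these genes also fixed their H3K27ac at 2 of 4 NCD and 2 of 4 HFD mice, so presence was not compared by diet.

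**Figure D3:**
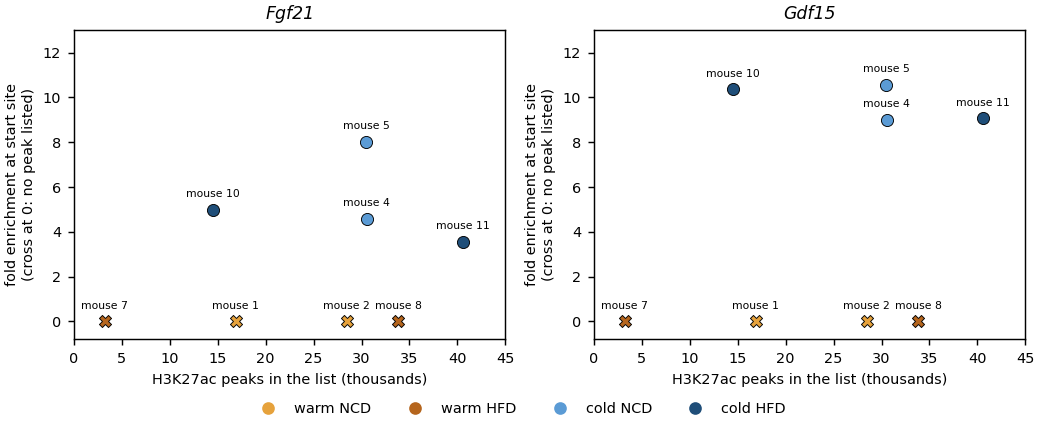
Fold enrichment of the H3K27ac peak at the start site of Fgf21 (left) and Gdf15 (right) against the number of H3K27ac peaks in the list of each mouse (axis in units of 1000 peaks); crosses at 0 mark mice with no listed peak, which is not a measured value of 0. The 4 cold points lie at lists of 14511 to 40604 peaks and the 4 warm crosses at lists of 3224 to 33798.

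The genes most like Fgf21 and Gdf15 were found by counting, over 32 lists, those in which presence at a start site differed. Dok4, an adaptor of receptor tyrosine kinases, differed from Fgf21 in 2 lists. Next came 5 genes at 3 lists, of which Gdf15, Elmo3, Polr3a and Fblim1 had the highest H3K27ac percentiles in cold mice. Fblim1, which links filamin to sites of cell adhesion, differed from Gdf15 in 2 lists, while Cyb5r3, Plaur and Fgf21 differed in 3 and Fam69b in 4. Plaur, the urokinase receptor, had H3K27ac at its start site in 4 of 4 cold and 0 of 4 warm mice and H3K4me3 in 4 and 2. Fgf21 and Gdf15, chosen for the same H3K27ac pattern, differed in 3 of the 32 lists, so part of this likeness was set by the choice.

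Nrg4 (ENSMUSG00000032311.17, chr9:55220222-55326844, minus strand) had the longest region of the 7, 147 kb against 41.6 to 66.9 kb, and the highest number of H3K27ac peaks in it, 108, of which 79 lay in the gene body away from a start site. As a share of the region, H3K27ac peaks covered 0.549% to 21.2% at Nrg4 over the 8 mice, against 0% to 19.8% at Gdf15 and 0% to 18.9% at Pltp, and these ranges overlapped. Its 2 start sites are 43.1 kb apart and behaved differently. At the inner one, H3K27ac was present in 8 of 8 mice, with the highest fold at 8.62 and 13.3 in warm NCD mice, 14.3 and 15.2 in cold NCD mice, 7.22 and 13.7 in warm HFD mice and 8.52 and 15.0 in cold HFD mice. These peaks stood at percentiles 79.3 to 97.6 of their lists. Of genes with H3K27ac at a start site, 7.54% had it in all 8 mice. At the outer start site, shared with the divergent gene Tmem266, H3K27ac was present in mice 2, 5, 8 and 11 only, with folds of 8.36, 7.41, 2.70 and 5.60, which is 1 mouse in each condition. H3K4me3 was present at both start sites in 8 of 8 mice.

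Inside Nrg4, a block of intronic H3K27ac at chr9:55248967-55258525, 25 to 35 kb downstream of the inner start site, was present in 8 of 8 mice. Its highest fold was 8.23, 11.4, 17.5, 12.9, 4.80, 17.8, 7.66 and 12.0 in mice 1, 2, 4, 5, 7, 8, 10 and 11. The highest value was in warm mouse 8 and the lowest in warm mouse 7, so the warm range enclosed the cold one. A second intronic block at chr9:55244177-55248455 was present in all but mouse 7. H3K4me1 was found inside the first block in mice 4, 5, 8 and 11, and in the second in mice 2, 4 and 5. H3K27ac peaks covered 10.4 to 31.1 kb of the Nrg4 region in cold mice and 0.805 to 26.6 kb in warm mice, means of 20723 ± 8427 and 14279 ± 11516 bp (SD, n = 4 each). The difference of 6445 bp was within the spread between mice (two-sided exact permutation test, p = 0.343, adjusted p = 1), and single mice moved it widely, to 1954 bp without mouse 7, 2992 bp without mouse 11, 9873 bp without mouse 10 and 10563 bp without mouse 8. Fbxo22, a ubiquitin ligase subunit downstream of Nrg4, carried H3K27ac in 7 mice and H3K4me3 in 8.

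Pltp (ENSMUSG00000017754.13, chr2:164839518-164857711, minus strand) had H3K4me3 at its start sites in 8 of 8 mice, with fold enrichments from 4.58 in mouse 7 and 8.07 in mouse 8 to 30.0 and 61.4 in cold NCD mice 4 and 5. The other mice lay between 13.4 and 23.8. H3K27ac at the start sites was listed in 6 mice and missing from warm HFD mouse 7 and cold HFD mouse 10, so 3 of 4 cold and 3 of 4 warm mice had it (two-sided Fisher's exact test, p = 1), as did 4 of 4 NCD and 2 of 4 HFD mice (p = 0.429, exact). The 2 mice without it had the shortest H3K27ac lists. Stronger H3K27ac lay upstream, 1.8 to 2 kb before the start sites, where the summit of the leading peak fell in 7 mice. Its fold was 7.97 and 17.7 in mice 1 and 2, 11.5 and 16.8 in mice 4 and 5, 12.2 in mouse 8, 8.28 in mouse 10 and 15.3 in mouse 11. Warm and cold values overlapped fully. A further region at chr2:164873378-164875375 was present in 6 mice, and H3K4me1 accompanied the upstream stretch in mice 2, 4, 5 and 8. H3K27ac covered 4457 to 11007 bp of the Pltp region in cold mice and 0 to 9971 bp in warm mice, with means of 9043 ± 3075 and 4701 ± 4135 bp (SD, n = 4 each; two-sided exact permutation test, p = 0.143, adjusted p = 1). The difference of 4342 bp was 2775 bp without mouse 7. The neighbouring starts of Ctsa, which encodes the lysosomal protective protein cathepsin A, and Neurl2 carried H3K27ac in 7 mice and H3K4me3 in 8, and Zswim1 carried H3K27ac in mice 2, 4 and 5 and H3K4me3 in 8.

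Bmp8b (ENSMUSG00000002384.2, chr4:123105165-123132099, plus strand) had its H3K27ac inside the gene. A region at chr4:123107079-123108167, with summits 2096 to 2273 bp downstream of the start site in an intron, was present in 8 of 8 mice. Its fold was 6.42, 10.5, 4.62 and 9.99 in warm mice 1, 2, 7 and 8 and 13.9, 13.9, 9.13 and 20.1 in cold mice 4, 5, 10 and 11. Cold values were thus mostly higher, with mouse 10 below 2 warm mice. A weaker region about 1.4 kb downstream was listed in the 4 cold mice and in warm mouse 8, with folds of 4.10, 6.14, 5.58, 6.65 and 4.94 in mice 4, 5, 10, 11 and 8. In mouse 11 that peak reached to within 1000 bp of the start, the single mouse scored as having H3K27ac there. H3K4me3 at the start site was listed in 3 of 4 cold mice (mice 5, 10 and 11) and 1 of 4 warm mice (mouse 8), with folds of 9.37, 3.17, 7.10 and 4.65 (two-sided Fisher's exact test, p = 0.486, adjusted p = 1). By diet it was in 1 of 4 NCD and 3 of 4 HFD mice (p = 0.486, exact). H3K27ac covered 1127 to 2028 bp of the Bmp8b region in cold mice and 199 to 1447 bp in warm mice, means of 1683 ± 406 and 833 ± 655 bp (SD, n = 4 each; two-sided exact permutation test, p = 0.114, adjusted p = 1). These ranges overlapped. Within 5 kb of the gene, 1 of the alternatives tried, the 4 cold mice were all above the 4 warm ones (exact permutation, p = 0.0286, adjusted p = 1). With 20 kb, 178 of 14980 genes were at that smallest p, and with 5 kb their number was not counted. Scaled to the bases covered by each list the gap was 11.9 bp per Mb (exact permutation, p = 0.543). The single H3K27me3 peak of all 7 regions lay here in mouse 11, at the start of Oxct2b and Gm17244 within the Bmp8b gene body, with a fold of 4.18. Ppie, a peptidylprolyl isomerase about 34 kb downstream of the Bmp8b start site, had H3K4me3 in 8 of 8 mice with folds of 10.1 to 92.3, above those at Bmp8b itself in each mouse that had both.

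**Figure D4:**
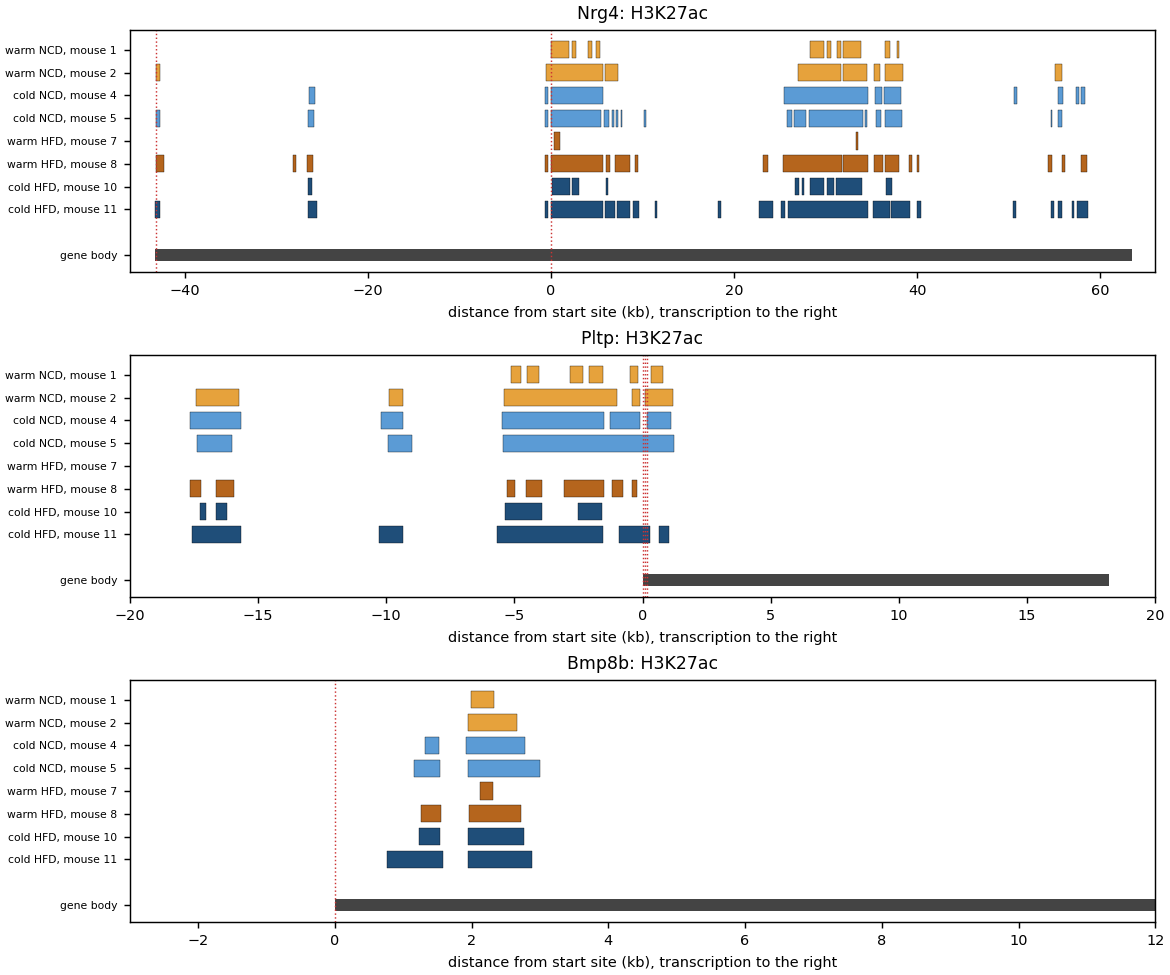
H3K27ac peaks of each mouse at Nrg4, Pltp and Bmp8b (from top), against the distance in kb from a start site (the inner one for Nrg4); bars span the listed peaks, dotted lines mark start sites and grey bars the gene body, which runs past the right edge for Bmp8b. The main blocks of Nrg4 and the Bmp8b peak 2.1 to 2.3 kb inside the gene appear in all 8 rows, and mouse 7 has no bar at Pltp.

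Il6 and Cxcl14 had no H3K27ac in any mouse, at the start site or in the 20 kb on each side. At Cxcl14 (ENSMUSG00000021508.11, chr13:56288643-56296551, minus strand) the only mark was H3K4me3 at the start sites, listed in 7 of 8 mice and not in mouse 7. Its fold was 6.44 and 6.96 in mice 1 and 2, 3.16 and 31.7 in mice 4 and 5, 4.82 in mouse 8, and 3.41 and 16.6 in mice 10 and 11. The cold mice held both the lowest and the highest of these folds. By −log10 q the order was another, with 16.4, 84.8 and 46.8 in cold mice 4, 5 and 11. Warm mice 1, 2 and 8 had 6.38, 7.72 and 6.14, and cold mouse 10 had the lowest, 2.06. The peak of mouse 4, lowest in fold, spanned 1885 bp. The mark covered 661 to 2092 bp in cold mice and 0 to 1080 bp in warm mice (two-sided exact permutation test, p = 0.114, adjusted p = 1). Cold mouse 10 held the lowest cold value, 661 bp, and without it the groups no longer overlapped (exact permutation, p = 0.0286, the smallest this test gave, adjusted p = 0.687). Because removing the lowest cold mouse pulls the groups apart, nothing is read from that p. How many genes at large separate without mouse 10 was not counted. At Il6 (ENSMUSG00000025746.11, chr5:30013114-30019981, plus strand) H3K4me3 was listed in warm NCD mice 1 and 2 alone, with folds of 7.45 and 4.70 over 240 and 349 bp. That is 2 of 4 warm and 0 of 4 cold mice, and likewise 2 of 4 NCD and 0 of 4 HFD mice (two-sided Fisher's exact test, p = 0.429 and adjusted p = 1 for each). H3K4me1 appeared at Il6 in mouse 11.

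Over the regions of the 7 genes, H3K27ac peaks of the 8 mice merged into 44 regions. Of these, 11 were at Fgf21 and Gdf15, where 10 were present in more cold than warm mice. Both genes were chosen for cold H3K27ac, so nothing is read from that count. Of the 33 at Nrg4, Bmp8b and Pltp, 22 (66.7%) were present in more cold mice, 3 in more warm mice and 8 in equal numbers, beside 61.3% of the 47548 merged regions of the genome in more cold mice and 16.5% in more warm mice. A region with peaks in all 4 cold and no warm mice was found 2 times, at Fgf21 and at Gdf15, which is what the choice of these genes fixed, against 154 of 47548 merged H3K27ac regions, or 0.324%, in the genome. No merged H3K27ac or H3K4me3 region at any of the 7 genes separated all NCD from all HFD mice. At start sites over the genome, such a separation was itself rare, at 11 of 10887 genes for H3K27ac and 26 of 14232 for H3K4me3. H3K4me1 and H3K27me3 could hardly show it, with 592 and 47 peaks in NCD mouse 1 and 12 and 21 in HFD mouse 7. H3K4me3 was at a start site in 8 of 8 mice for 2 of the 7, Nrg4 and Pltp, where the share among 14232 genes was 66.7%. Leaving out mouse 7, whose H3K4me3 list was the shortest, adds Cxcl14 as the third. This count of 7 genes was not tested against genes at large.

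Across all genes the same lean towards cold was seen. The bases under H3K27ac peaks were higher in cold than in warm mice for 78.5% of 14980 genes, with a median difference of 267 bp. The 3 genes not chosen for it that had H3K27ac, Nrg4, Bmp8b and Pltp, each leaned the same way. For H3K4me3 the cold mice were higher for 72.6% of 16864 genes, with a median difference of 186 bp, and 4 of the 5 tested genes leaned that way, though Nrg4 turned the other way when scaled to list coverage. By diet, all 5 genes with H3K27ac had fewer bases under H3K27ac peaks in HFD mice, with differences of −40.75 bp at Fgf21, −473 bp at Gdf15, −522 bp at Nrg4, −114.5 bp at Bmp8b and −3663 bp at Pltp, against a median of −345 bp over all genes, where 18.6% were higher in HFD mice. Except at Pltp these differences changed sign in some alternative. At Fgf21 and Gdf15 the bases include the start-site peaks that the choice placed in 2 NCD and 2 HFD mice. Their differences and tests by diet are therefore partly set by the choice. For H3K4me3, 5 of 7 had fewer bases in HFD mice, with Nrg4 and Bmp8b higher. In 46 tests of the 7 genes on both marks, temperature, diet and their interaction, none reached p = 0.05 before adjustment, the lowest being the interaction for H3K4me3 at Pltp (exact permutation, p = 0.0571, adjusted p = 0.481). With 4 mice against 4 the smallest p these tests can give is 0.0286, and over all genes none passed after Benjamini-Hochberg adjustment. Before adjustment, 178 of 14980 genes for bases under H3K27ac by temperature and 13 of 10887 for presence at a start site were at that smallest p.

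**Figure D5:**
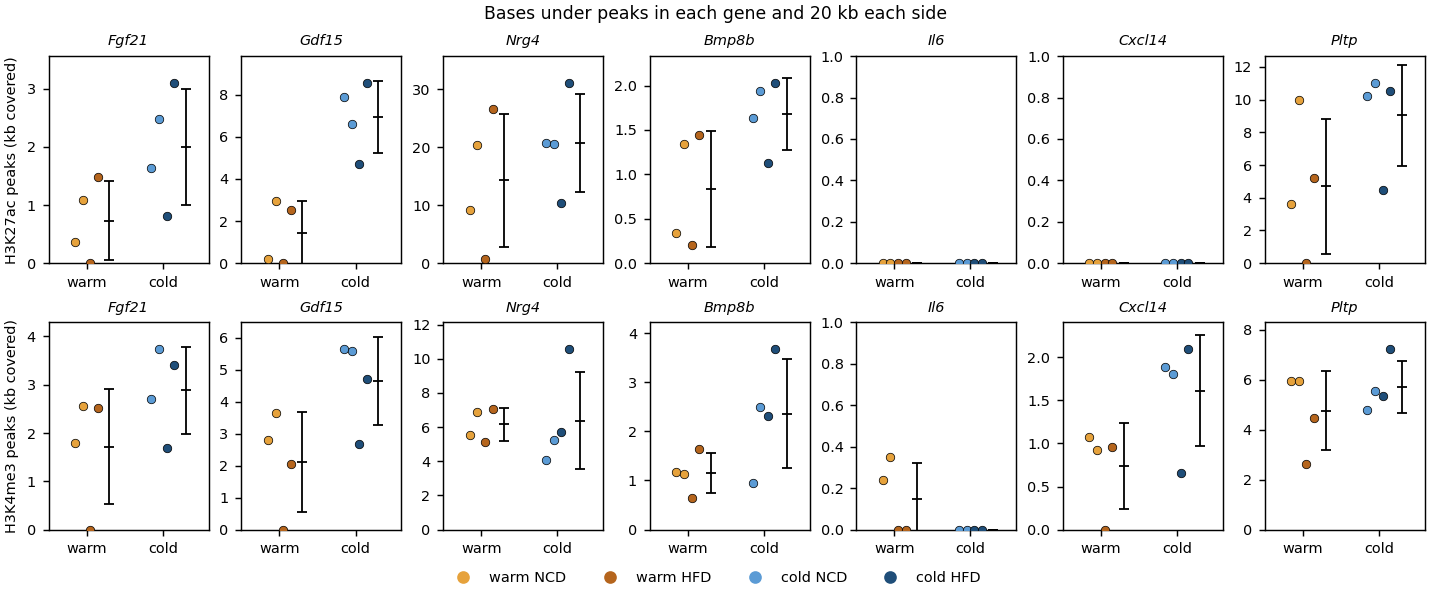
Kilobases under H3K27ac (upper row) and H3K4me3 (lower row) peaks within each gene and 20 kb on each side, by temperature; points are mice coloured by condition and the bars beside them give the mean ± SD of 4 mice. The cold and warm points are separate for H3K27ac at Gdf15, where cold mice had 4698 to 8548 bp and warm mice 0 to 2936 bp, and overlap in all other panels that hold data. The peaks on which Gdf15 was chosen are part of these bases, so nothing is read from that separation.

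Lists of genes related to these factors were read in the same way. They held 13 receptors and co-receptors, 14 stress response and thermogenic regulators and 18 other secreted factors. None of these genes had H3K27ac at a start site in all 4 cold and no warm mice. Over all genes with H3K27ac at a start site, 13 of 10887 (0.119%) had that pattern, so nothing is read from its absence in lists this short. In at least 1 mouse, 10887 of the 21938 protein-coding genes had H3K27ac at a start site. Among the receptors, 8 of 13 had H3K27ac in some mouse, and 1 had it in more cold and 2 in more warm mice. Acvr1c, a receptor of TGF-β family ligands in fat, had it in 4 cold and 3 warm mice. Fgfr1, the FGF21 receptor, had it in 2 cold and 3 warm mice, and Erbb4, the NRG4 receptor, in 1 and 2. The GDF15 receptor gene Gfral had neither H3K4me3 nor H3K27ac in any mouse, and its co-receptor Ret had H3K4me3 in 6 mice and no H3K27ac. Of the regulators, 13 of 14 had H3K27ac in some mouse, 3 in more cold and 1 in more warm mice. Trib3, a pseudokinase induced by ATF4, was the most unequal, with 4 of 4 cold and 1 of 4 warm mice. The ATF family gene Atf3 and Ddit3, which encodes CHOP, had 4 and 3, and Asns, asparagine synthetase, had 1 and 2. Atf4 itself, Ppargc1a, Ppara, Dio2 and Ucp1 had both marks in 8 of 8 mice. Of the other secreted factors, 14 of 18 had H3K27ac in some mouse, 2 in more cold and 3 in more warm mice. Adipoq, encoding adiponectin, had 4 and 3, Fst, the activin-binding follistatin, had 1 and 2, Igf1 had 2 and 3, and Ptgds had 1 and 0. Over all genes with H3K27ac at a start site, 46.9% had it in more cold and 15.5% in more warm mice.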

How the data were processed

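The deposited peak lists of 4 histone marks in iBAT of 8 mice were used. Per the labels and the study's methods, the authors trimmed reads with cutadapt, aligned them to GRCm38 with Bowtie2 and called peaks against input with MACS2, 1 list per library. The sources used here give no tool versions. The deposited columns used were the fold enrichment over input, a ratio, and the −log10 p and −log10 q, all as MACS2 wrote them. The lowest −log10 q was 1.30, so signal below that limit is not in the lists, and read depth is unknown. The study's methods speak of 2 mice per experiment, while the labels give each library 1 mouse number, and the GEO design text calls the tissue inguinal where the methods say interscapular.

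Start sites and gene bodies came from GENCODE M21 basic (GRCm38), and sequences from RefSeq GRCm38.p6. A gene was marked when a peak overlapped 1000 bp on either side of a start site. Presence was compared with two-sided Fisher's exact tests, and bases under peaks within the gene and 20 kb each side with two-sided exact permutation tests over 70 assignments of mice (2520 for the interaction), for every protein-coding gene with the mark, adjusted by the Benjamini-Hochberg method over all of them. The interaction test shuffled mice freely over all 4 conditions, so its p also presumes no effect of temperature or diet alone. H3K4me1 and H3K27me3 were not tested, nor was H3K27ac presence at Fgf21 and Gdf15, which their choice fixed for temperature and diet alike. All 7 genes, the neighbours with peaks at their start sites, at most 4 genes per list with the most unequal H3K27ac between temperatures and the 5 genes most like Fgf21 and Gdf15 were named. Gfral, Ret, Atf4, Ppargc1a, Ppara, Dio2, Ucp1, Mylpf and Acta1 were added after their values were seen. The genes and lists were chosen with earlier results of these data known. Other start-site windows, regions, peak thresholds and left-out mice were tried. The statistics were tested on simulated data (Python 3.11.15, numpy 2.4.6, scipy 1.17.1).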

Additional observations from a re-analysis of the deposited data

Results flagged for a closer look

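Bases under peaks were compared within each group of 4 mice for single mice far from the rest, by Dixon's criterion at the 95% level, in 46 groups, of which chance alone would flag about 1 in 20. There were 5 such cases. Around Nrg4, mouse 1 had 9222 bp under H3K27ac peaks, the lowest of the NCD mice, the next being 20453 bp. Around Pltp, mouse 1 had 3621 bp, again the lowest of the NCD mice, against 9971 bp for the next, and mouse 10 had 4457 bp, the lowest of the cold mice, against 10213 bp. The H3K27ac lists of mice 1 and 10, with 16889 and 14511 peaks, are the shortest after that of mouse 7, and the part of list length in these values was not tested. Around Cxcl14, warm mouse 7 had 0 bp under H3K4me3 peaks, against 923 bp for the next. Around Bmp8b, mouse 5 had 2489 bp under H3K4me3 peaks, the highest of the NCD mice, against 1166 bp.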

How the results depend on the processing

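The number of genes with H3K27ac at a start site in all cold and no warm mice was 2, and fell to 1 with a 500 bp window (Fgf21), to 1 with a 2000 bp window (Fgf21), to 1 with a −log10 q of at least 5 (Gdf15) and to 0 among the top 3000 peaks of each list. It was 2 when the summit had to lie in the window. Leaving out single mice says nothing of this count, which the choice of the genes fixes. The number with H3K4me3 in all mice, 2, fell to 1 with a −log10 q of at least 5 (Nrg4) and to 0 among the top 3000 peaks, and was 2 or 3 without 1 mouse. No test of the 7 genes passed after adjustment under any alternative, the lowest adjusted p of 471 being 0.155. Differences in bases under H3K27ac peaks, HFD minus NCD, changed sign as follows. Per Mb covered by the list they were 34.7 bp at Bmp8b, 1.26 bp at Fgf21, 38.8 bp at Gdf15 and 96.5 bp at Nrg4. With 5 kb each side they were 145 bp at Bmp8b and 159.5 bp at Gdf15. Among the top 3000 peaks they were 410.5 bp at Bmp8b, 1697 bp at Gdf15 and 4352 bp at Nrg4, and with a −log10 q of at least 5, 22.5 bp at Fgf21. Without 1 mouse they ran from −440.1 to 219 bp at Bmp8b, −624 to 409 bp at Fgf21, −2009 to 840.3 bp at Gdf15 and −5136 to 4956 bp at Nrg4. For H3K4me3, cold minus warm at Nrg4 was −65.4 bp per Mb, −109 bp with a −log10 q of at least 5, −872 bp among the top 3000 peaks and −1157 to 1006 bp without 1 mouse. HFD minus NCD was −79 bp at Bmp8b among the top 3000 peaks, 25.5 bp per Mb at Pltp, and −1407 to 121 bp at Pltp without 1 mouse. The cause of these changes was not tested. No paired analysis was possible because the conditions compared share no mouse. A mark below the calling limit of a short list cannot be seen, and H3K27ac absence in mouse 7 (3224 peaks) is the least informative.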

Other observations

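Among the other secreted factors, Lep, which encodes leptin, separated the diets and not the temperatures; it was singled out after its values were seen. H3K4me3 was listed at its start site in 4 of 4 NCD and 0 of 4 HFD mice, and H3K27ac likewise in 4 of 4 NCD and 0 of 4 HFD mice, with 2 cold and 2 warm mice for each mark (two-sided Fisher's exact test by diet, p = 0.0286 for each, the smallest the design allows, adjusted p = 1). The split that singled out Lep also fixes that p, so nothing is read from it. Separation of the 4 NCD from the 4 HFD mice in either direction was seen at the start sites of 26 of 14232 genes for H3K4me3 and of 11 of 10887 genes for H3K27ac.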
